A study of Mus musculus with 8 samples.

Results

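The aminoacyl-tRNA synthetases are the enzymes that attach each amino acid to its transfer RNA (tRNA), the step that gives the genetic code its meaning. The 36 members described here were taken by gene symbol: 20 cytosolic enzymes and 16 mitochondrial ones, whose symbols end in 2. They stand among 21750 genes tested on the arrays. All 36 had at least 1 tested probe, 35 were well above background on all 8 arrays, and 44 of their 45 probes were tested. The accession behind each of the 45 probes leads to the member it is named for.

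Both kinds of enzyme are encoded in the nucleus, and the mitochondrial ones are imported to serve the organelle's own ribosomes. Gars and Kars, which load glycine and lysine, supply both compartments from 1 gene, and Eprs carries the glutamate and the proline enzyme in 1 protein. In the cytosol several synthetases sit in a large complex held together by scaffold proteins, while others are free. Many cytosolic synthetase genes are known targets of ATF4, the transcription factor of the amino acid response, which is made when uncharged tRNA or other stress slows translation.

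Messenger RNA was measured at day 6 of a neural induction of mouse embryonic stem cells, in cells that the labels call RGC-like NPC, neural progenitor cells that resemble radial glia. Of the 8 samples, 4 are labelled control and 4 KD, and the design text gives them a control short hairpin RNA (shCtrl) or one against Zrf1 (shZrf1). Zrf1, whose current symbol is Dnajc2, encodes a chaperone of the ribosome that also binds chromatin. The labels do not state the cell line or whether samples of a group are separate cultures, so p-values measure only the spread between these samples. The series concerns the place of Zrf1 in neural progenitor identity, and the comparison here is between synthetase transcripts of the control and the KD samples.

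Every level below is a log2 signal relative to the 75th percentile of its array, so 0 is that percentile and levels of different probes are not compared. A change is knockdown minus control on the log2 scale. A gene passed the test where limma's adjusted p (Benjamini-Hochberg over all tested genes) was under 0.05, and "rose" and "fell" are used only of such genes. Between 53.4% and 60.3% of spots were well above background, and the number of arrays limits the precision. Dnajc2 itself went from 1.87 ± 0.11 to -2.32 ± 0.23 (SD, n = 4 each), a change of -4.19 (SE 0.12, limma adjusted p 1.14e-07). Of 8 neural progenitor markers 7 fell, all but Pax6, and their summed signal was 98.8 to 109 times the 75th percentile on control arrays and 23.8 to 25.5 times on knockdown arrays. On no knockdown array was Fabp7 well above background. All 8 endoderm markers rose, 6 of them also when arrays were scaled by their median, and their summed signal went from between 2.26 and 2.73 to between 10.02 and 10.8. On no control array was Afp well above background. Over all tested genes 28.7% fell and 29.3% rose. Of 5 pluripotency markers 3 fell and 1 rose, and their sum was 53.6 to 59.2 on control and 19.7 to 21.6 on knockdown arrays. Of 5 neuron markers 3 fell and 1, Stmn2, rose. Their sum was nonetheless higher on the knockdown arrays, at 9.71 to 10.6 against 7.33 to 8.90. Of 5 fibroblast markers 3 rose, 2 of them also with median scaling. Their sum was 5.02 to 5.28 on control and 8.50 to 9.17 on knockdown arrays. Of 5 mesoderm markers the 2 bright enough to be tested rose. The part of these shifts in the synthetase results was not tested, and in such bulk RNA fewer cells of a type and less RNA per cell cannot be told apart.

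Probes of 4 members that passed the test are shown first, the 2 mitochondrial genes with the largest falls by their brightest probe and the genes that rose. Both probes of Wars2 are given because they gave different answers. They are the arrays' designed probes of 60 bases, printed 5′ to 3′ without capitals, with positions on mouse build mm9 as in the files. Where the probes lie within exons or UTRs was not analysed here.
Yars2, chr16:16307393-16307452, plus strand: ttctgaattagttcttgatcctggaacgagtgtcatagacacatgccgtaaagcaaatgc
Wars2, downstream probe, chr3:99023010-99023069, plus strand: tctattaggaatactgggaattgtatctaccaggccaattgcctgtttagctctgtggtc
Wars2, upstream probe, chr3:99009150-99009209, plus strand: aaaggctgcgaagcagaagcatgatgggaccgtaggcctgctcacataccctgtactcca
Nars2, chr7:104212879-104212938, plus strand: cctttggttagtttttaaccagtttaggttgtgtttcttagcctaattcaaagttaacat
Sars, chr3:108229539-108229598, minus strand: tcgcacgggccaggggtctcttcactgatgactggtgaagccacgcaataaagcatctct

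Of the 16 mitochondrial synthetase genes, 10 fell, 1 rose and 5 did not pass the test. Of the 20 cytosolic genes, 6 fell, 1 rose and 13 did not pass. Over all tested genes 58% passed in either direction, 28.7% lower and 29.3% higher, so the 62.5% of mitochondrial genes that fell stood above that background and the 30% of cytosolic genes that fell stood close to it. The median change was -0.55 for the mitochondrial and -0.21 for the cytosolic genes, against 0.04 for all tested genes. With arrays scaled by their median, a setting that takes the median of all tested genes to -0.12, 12 mitochondrial genes fell and 1 rose. In that setting 9 cytosolic genes fell and none rose, and the medians were -0.72 (mitochondrial) and -0.38 (cytosolic). Of all 21750 tested genes 6868 fell and 4143 rose there, so the cytosolic share that fell also stood above that of all tested genes.

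The control and knockdown arrays did not overlap for 11 of the 16 mitochondrial genes and for 7 of the 20 cytosolic ones, where 55% of all tested genes did not overlap. Set against each gene's control mean, the median over the mitochondrial genes was between -0.04 and 0.06 on the 4 control arrays. On knockdown arrays 1 to 4 it was -0.44, -0.59, -0.54 and -0.53. The same median over the cytosolic genes was -0.10, -0.14, -0.20 and -0.30 on knockdown arrays 1 to 4, so every knockdown array was lower for the mitochondrial than for the cytosolic genes.

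**Figure D1:**
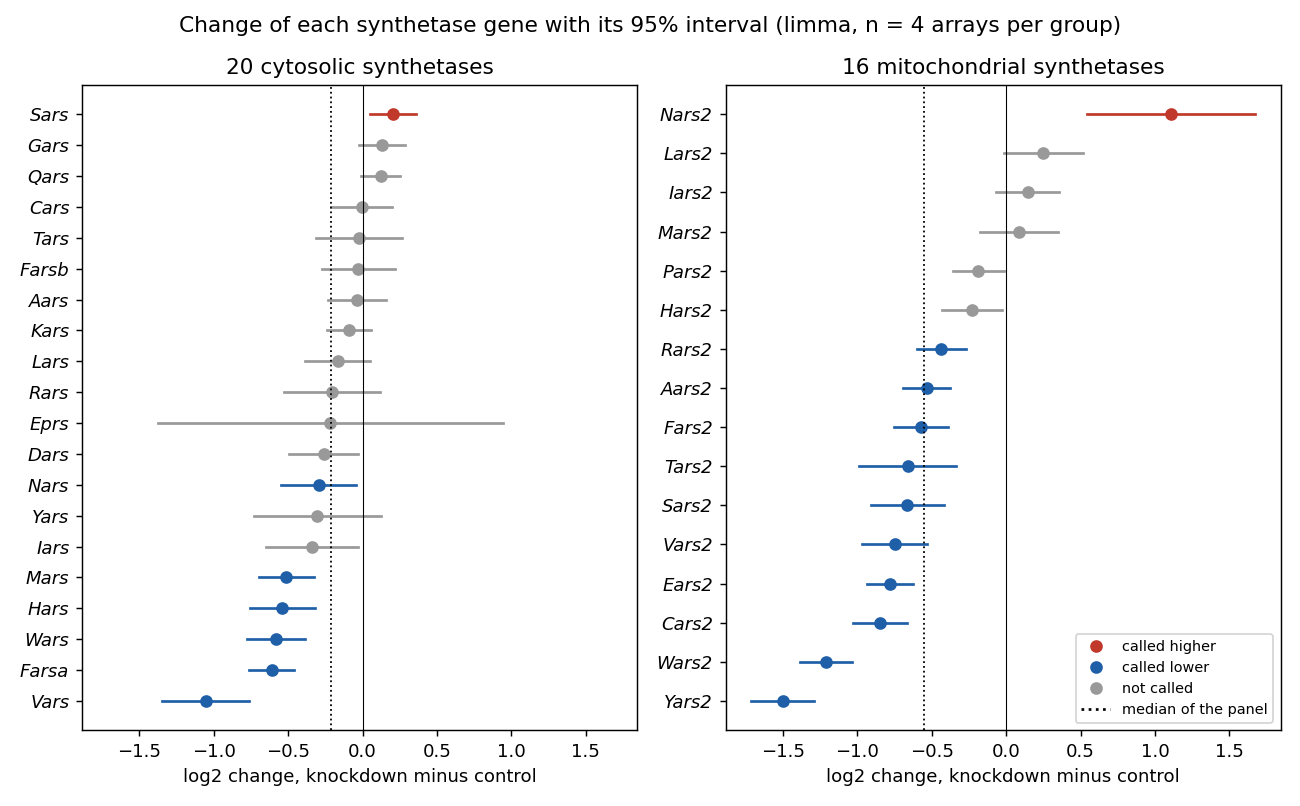
Log2 change, knockdown minus control, of each of the 20 cytosolic and 16 mitochondrial synthetase genes, with the 95% interval from limma (n = 4 arrays per group). Points are coloured by whether the gene passed the test and in which direction, and the dotted line is the median of the panel, -0.21 on the left and -0.55 on the right.

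Among the mitochondrial enzymes the tyrosine and, by its brighter probe, the tryptophan enzyme had the largest falls. Yars2, which loads mitochondrial tyrosine tRNA, read 2.70, 2.69, 2.88 and 2.57 on control arrays 1 to 4 and 1.36, 1.26, 1.08 and 1.13 on knockdown arrays 1 to 4. Every control array lay over 1 log2 unit above every knockdown array, and Yars2 was 2.83-fold lower (change -1.50, SE 0.09, limma adjusted p 3.54e-06). Its change was -1.33, -1.55 and -1.57 within slides 1, 2 and 3, each of which carries arrays of both groups.

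Wars2, the tryptophan enzyme, read 0.01, 0.02, 0.03 and 0.06 on the control arrays and -1.03, -1.15, -1.34 and -1.21 on the knockdown arrays with its brighter, downstream probe. The control arrays lay within 0.06 of each other and all above the knockdown arrays, a 2.31-fold difference (change -1.21, SE 0.08, limma adjusted p 3.71e-06). The upstream Wars2 probe, 13860 bases away, gave a change of 0.07 and did not pass. With the mean of both probes Wars2 changed by -0.57, less than the -0.78 of Ears2.

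Further falls among the mitochondrial enzymes were between -0.43 and -0.85. Cars2, for cysteine, read 0.99, 0.97, 1.11 and 0.84 on the control arrays and 0.25, 0.04, 0.08 and 0.13 on the knockdown arrays, which was 1.80-fold lower, a change of -0.85 by its brighter probe and -0.57 by the mean of both. Ears2, for glutamate, read 1.35, 1.43, 1.27 and 1.31 against 0.67, 0.54, 0.55 and 0.49, a change of -0.78. Vars2, the valine enzyme, read -0.26, -0.21, -0.10 and -0.26 against -1.09, -0.79, -1.12 and -0.83, a change of -0.75. In all 3 genes the lowest control array was above the highest knockdown array.

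The serine enzyme Sars2 changed by -0.66, and its control array 4, at 1.20, lay below the other controls, which were at 1.50 or 1.51. The threonine enzyme Tars2 changed by -0.66, the phenylalanine enzyme Fars2 by -0.57, the alanine enzyme Aars2 by -0.53 and the arginine enzyme Rars2 by -0.43. In each of these 5 genes the groups did not overlap. Rars2 was the smallest of the 10 falls: it read 3.00, 3.08, 3.27 and 3.07 on the control arrays and 2.71, 2.66, 2.68 and 2.62 on the knockdown arrays (limma adjusted p 0.00101).

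Nars2, which loads mitochondrial asparagine tRNA, was the exception among the mitochondrial genes that passed. It read -4.39, -3.47, -4.54 and -4.01 on the control arrays and -3.34, -2.96, -2.65 and -3.03 on the knockdown arrays, a change of 1.11 (SE 0.24, limma adjusted p 0.00467). Its signal was dim: only 2 of the 4 control arrays, but every knockdown array, had it well above background. Nars2 thus entered the test only through the group where it was higher, so its call is not independent of that filter. With only probes well above background on all 8 arrays it left the test. The groups were separated by a narrow gap, since control array 2 and knockdown array 1, which share slide 1, differed by 0.13, while the changes on slides 2 and 3 were 1.47 and 1.37.

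The mitochondrial genes that did not pass had changes from -0.23 to 0.25. They were the enzymes for leucine (Lars2, 0.25), isoleucine (Iars2, 0.15), methionine (Mars2, 0.09), proline (Pars2, -0.19, limma adjusted p 0.061) and histidine (Hars2, -0.23, limma adjusted p 0.055). Lars2 was between 0.13 and 0.30 on control arrays and 0.75, 0.61, 0.36 and 0.25 on knockdown arrays 1 to 4, so the groups overlapped through knockdown array 4. Without that array its change was 0.33 and passed, which makes 2 mitochondrial genes that rose.

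Among the cytosolic enzymes Vars, the valine enzyme and a partner of elongation factor 1, had the largest fall. It read 3.87, 3.97, 3.95 and 3.54 on the control arrays and 2.94, 2.58, 2.68 and 2.91 on the knockdown arrays. Control array 4 was the lowest control and still above the highest knockdown array, and Vars was 2.08-fold lower (change -1.06, SE 0.13, limma adjusted p 0.000146). It was also the only cytosolic enzyme of the 3 members that fell by 2-fold or more, with Yars2 and, by its brighter probe, Wars2.

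The other cytosolic falls that kept their groups apart were near -0.5 to -0.6. Farsa, the catalytic subunit of the phenylalanine enzyme, read 3.31, 3.45, 3.46 and 3.30 on the control arrays against 2.80, 2.71, 2.76 and 2.81 on the knockdown arrays, a change of -0.61 (SE 0.06). Farsb, the other subunit of the same enzyme, changed by -0.03 and did not pass: it was 2.57 to 3.03 on control arrays and 2.74 to 2.89 on knockdown arrays. The transcripts of the 2 subunits thus gave different calls, though the difference between them was not tested.

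Wars, the tryptophan enzyme, read 5.19, 5.31, 5.49 and 5.36 against 4.87, 4.80, 4.71 and 4.65, a change of -0.58. Hars, for histidine, went from 3.02 ± 0.15 to 2.48 ± 0.11 (SD, n = 4 each), a change of -0.54. Mars, the methionine enzyme, went from 2.88 ± 0.12 to 2.37 ± 0.08 (SD, n = 4 each), a change of -0.51. In each of these genes all knockdown arrays were below all control arrays.

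Nars, for asparagine, passed narrowly, and its groups overlapped. It read 2.55, 2.61, 2.18 and 2.52 on the control arrays and 2.01, 2.26, 2.24 and 2.17 on the knockdown arrays, so control array 3 lay among the knockdown arrays (change -0.30, SE 0.11, limma adjusted p 0.047). The call was lost under 14 of 18 alternatives, among them the omission of control array 1, 2 or 4 or of any knockdown array, where the change was between -0.24 and -0.32.

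Sars, the serine enzyme, was the only cytosolic gene that rose, and by little. It read 5.43, 5.52, 5.44 and 5.35 on the control arrays and 5.75, 5.61, 5.55 and 5.65 on the knockdown arrays, which is 1.15-fold higher (change 0.20, SE 0.07, limma adjusted p 0.031). The groups did not overlap, but the gap between them was narrow. The change was 0.04 with median scaling and did not pass there, nor without control array 1 or 4 or knockdown array 1, 2 or 4, where it was between 0.17 and 0.22.

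**Figure D2:**
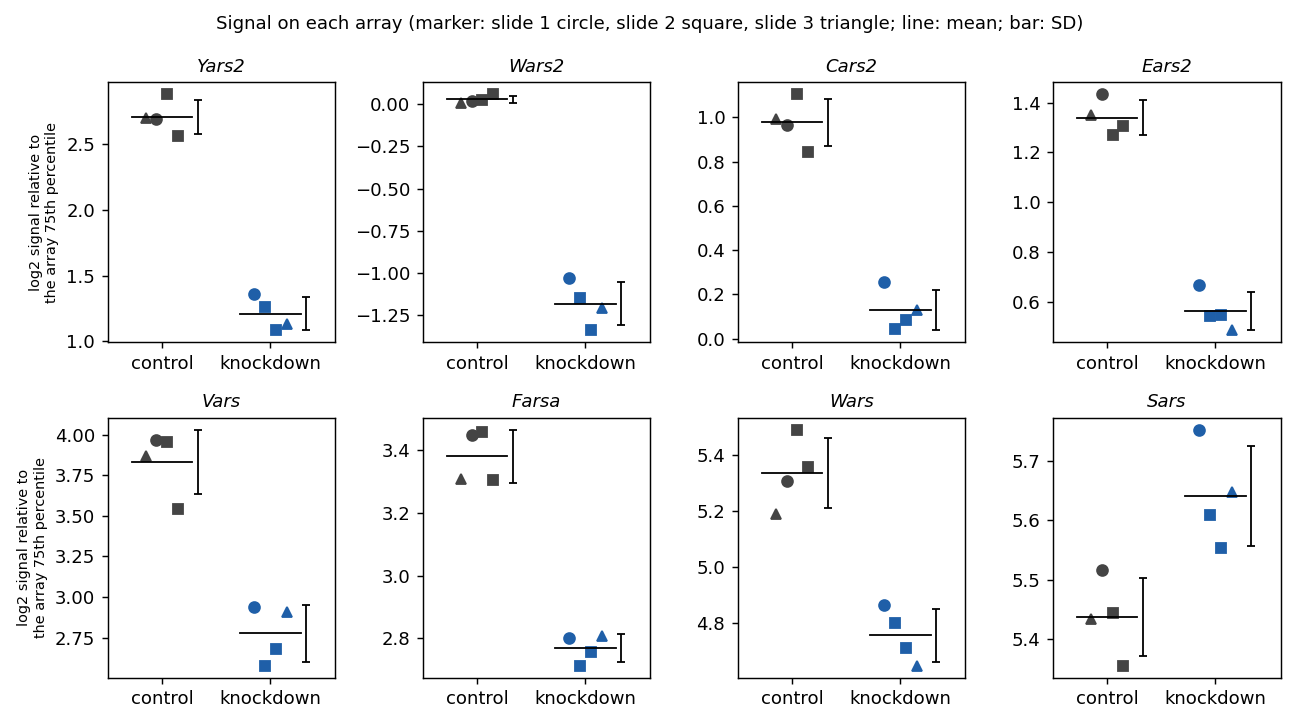
Log2 signal relative to the array's 75th percentile for 8 synthetase genes, 1 panel each with its own axis range, on the 4 control and 4 knockdown arrays. Circles, squares and triangles mark slides 1, 2 and 3, the line is the mean and the bar the SD. In each panel the groups do not overlap, and Sars alone is higher on the knockdown arrays.

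Of the 13 cytosolic genes that did not pass, 11 had changes below 0. The enzymes for alanine (Aars, -0.04), cysteine (Cars, -0.01) and threonine (Tars, -0.02) lay nearest to 0, with 95% intervals of -0.23 to 0.16, -0.21 to 0.20 and -0.31 to 0.27. The glycine enzyme Gars (0.13) and the glutamine enzyme Qars (0.12) lay above 0, though both lay below it with median scaling, at -0.04 and -0.05. Qars read 5.40 to 5.45 on control arrays and 5.48 to 5.61 on knockdown arrays, so its groups did not overlap although its adjusted p was 0.10.

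The enzymes for aspartate (Dars, -0.26), isoleucine (Iars, -0.34), tyrosine (Yars, -0.30), arginine (Rars, -0.21), leucine (Lars, -0.17) and lysine (Kars, -0.09) were lower on average but not past the threshold. Dars and Iars came closest, with adjusted p of 0.054 and 0.060 by limma. Knockdown array 1 stood nearest the controls in several of them: Iars was 4.46 there and 4.03 to 4.24 on the other knockdown arrays, and Yars was -1.40 there and -2.18 to -2.03 on the others.

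Eprs, the bifunctional glutamate and proline enzyme, could not be judged from the pooled arrays. It read 0.10, 0.01, 1.57 and 1.37 on control arrays 1 to 4 and -0.07, 1.31, 1.17 and -0.22 on knockdown arrays 1 to 4. The 4 high arrays are the 4 of slide 2, which exceeded the other arrays by 1.42 in the control and 1.39 in the knockdown group. It was the only member whose slides differed by 1 or more in both groups, and no other member differed by more than 0.34 in both. Within slides 1, 2 and 3 the change was -0.09, -0.23 and -0.32, and over all arrays it was -0.22 with a 95% interval of -1.38 to 0.94. With slide as a block the adjusted p of limma was 0.057.

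For the other members the slides made less difference. All 16 genes that fell had a negative change on each of the 3 slides, and 15 of the 16 still passed with slide as a block, the exception being Nars. With that block Hars2 also fell (limma adjusted p 0.044), which makes 11 mitochondrial genes that fell. Over all tested genes the deviations of a control and a knockdown array from their group means correlated at 0.13 to 0.33 where the arrays share a slide. The deposited file names give knockdown arrays 1 and 2 a shared number, and knockdown arrays 3 and 4 another, so they may be repeats of 2 samples. Over all tested genes, the SD of the difference between arrays was 0.37 and 0.41 for those pairs. For other pairs of knockdown arrays it was 0.31 to 0.42, lowest for arrays 2 and 3, which share slide 2. Whether arrays with a shared number are repeats was not tested. With each such pair averaged, 15 of the 16 falls and Nars2 still passed, and Nars and Sars did not.

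Synthetases belong to class I or class II by the fold of their catalytic domain. Of 10 cytosolic class I genes 3 fell and none rose (median -0.26), and of 10 class II genes 3 fell and 1 rose (median -0.07). Both classes thus had 30% that fell, close to the 28.7% of all tested genes. Of 9 mitochondrial class I genes 6 fell (median -0.75), and of 7 class II genes 4 fell and 1 rose (median -0.53).

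Of the 8 synthetases of the multi-enzyme complex, Mars alone fell, against 5 that fell and 1 that rose among the 12 free cytosolic enzymes. The medians of those groups were -0.21 and -0.17, and the difference between them was not tested. The shares that fell were 12.5% and 41.7%, where 28.7% of all tested genes fell. With median scaling 4 complex members and 5 free enzymes fell, and with the knockdown pairs averaged 1 and 4 fell and none rose. Among the scaffold proteins of the complex, Aimp2 fell by 0.41 (limma adjusted p 0.00192), while Aimp1 (0.05) and Eef1e1 (0.09) did not pass.

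For 16 combinations of a cytosolic and a mitochondrial enzyme of the same amino acid, the difference between the 2 genes was taken on each array, which removes the scaling of the array, and compared between the groups by an exact two-sided permutation test. This test was chosen after the values were seen. With 4 arrays against 4 there are 70 regroupings and the smallest possible p is 0.0286, and p-values were adjusted over the 16 comparisons. In 10 of the 16 the groups did not overlap and p was the smallest possible, with an adjusted p of 0.0457. The share of 55% given above is for single genes and does not apply to such differences. The share for pairs of other genes was not computed, so the 10 of 16 cannot be called particular to synthetases.

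In 6 of those 10 the mitochondrial enzyme had the lower change. The difference, mitochondrial minus cytosolic change, was -1.20 (SE 0.17) for tyrosine, where Yars2 changed by -1.50 and Yars by -0.30. It was -0.87 (SE 0.07) for serine, the 1 amino acid whose cytosolic gene rose and mitochondrial gene fell. It was -0.84 for cysteine, -0.64 for threonine, -0.63 for tryptophan and -0.50 for alanine. For cysteine, threonine and alanine the cytosolic change lay between -0.04 and 0.

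In the other 4 the mitochondrial enzyme had the higher change. These were asparagine (1.40, SE 0.21), methionine (0.60, SE 0.12), isoleucine (0.49, SE 0.16) and leucine (0.42, SE 0.07). Methionine, isoleucine and leucine are amino acids whose mitochondrial enzyme did not pass the test on its own. Asparagine rests on the dim Nars2 probe, which entered the test only through the knockdown arrays, where it was higher. The direction was thus not the same across amino acids: 8 differences were below 0 and 8 above, with a median of -0.10.

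In 6 combinations the difference did not pass. For phenylalanine it was 0.04 (SE 0.05), with Farsa at -0.61 and Fars2 at -0.57. This uses Farsa alone for the cytosolic enzyme, whose other subunit gene, Farsb, changed by -0.03 and did not pass. For valine it was 0.31 (SE 0.16), with both genes lower, for histidine 0.31 (SE 0.10, exact permutation p 0.0571), and for arginine -0.23 (SE 0.21). The glutamate and proline comparisons both use Eprs, and their SE of 0.61 and 0.59 carries its split by slide. When the mean of a gene's probes replaced the brightest one, 9 of the 16 had the smallest possible p and none passed after adjustment, at 0.0508.

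**Figure D3:**
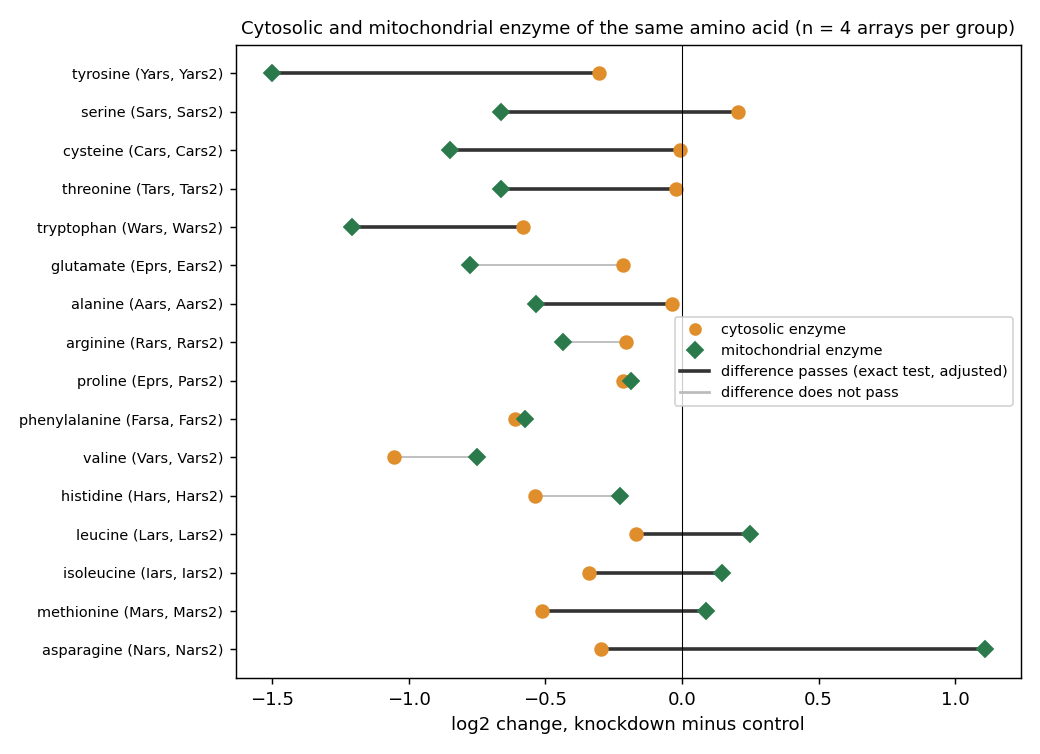
Log2 change, knockdown minus control, of the cytosolic (circle) and mitochondrial (diamond) enzyme of each amino acid, ordered by the difference between them, with n = 4 arrays per group. Dark lines mark the 10 differences with an adjusted exact permutation p of 0.0457, from tyrosine with -1.20 at the top to asparagine with 1.40 at the bottom.

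A pair of tested probes was present for 8 members, and over all tested probes 57% passed the same fit. Both probes fell for Farsa, Wars, Cars2, Tars2 and Vars2, neither passed for Iars2, and Pars2 and Wars2 were divided. For Pars2 the brighter probe changed by -0.19 and did not pass (limma adjusted p 0.067), and the upstream probe, 1793 bases away and dim, changed by 0.42 and passed (limma adjusted p 0.039). For Cars2 the downstream probe changed by -0.85 and the upstream one, 31605 bases away, by -0.28.

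The within-array difference between the probes of a gene separated the groups for Wars2 (-1.28, SE 0.15), Pars2 (-0.61, SE 0.16) and Cars2 (-0.57, SE 0.12), in each of which the downstream probe had the lower change. Each had an exact permutation p of 0.0286, the smallest possible, and an adjusted p of 0.0762 over the 8 genes, so none passed. Aars also had a second probe, which was too dim on all 8 arrays to be tested.

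**Figure D4:**
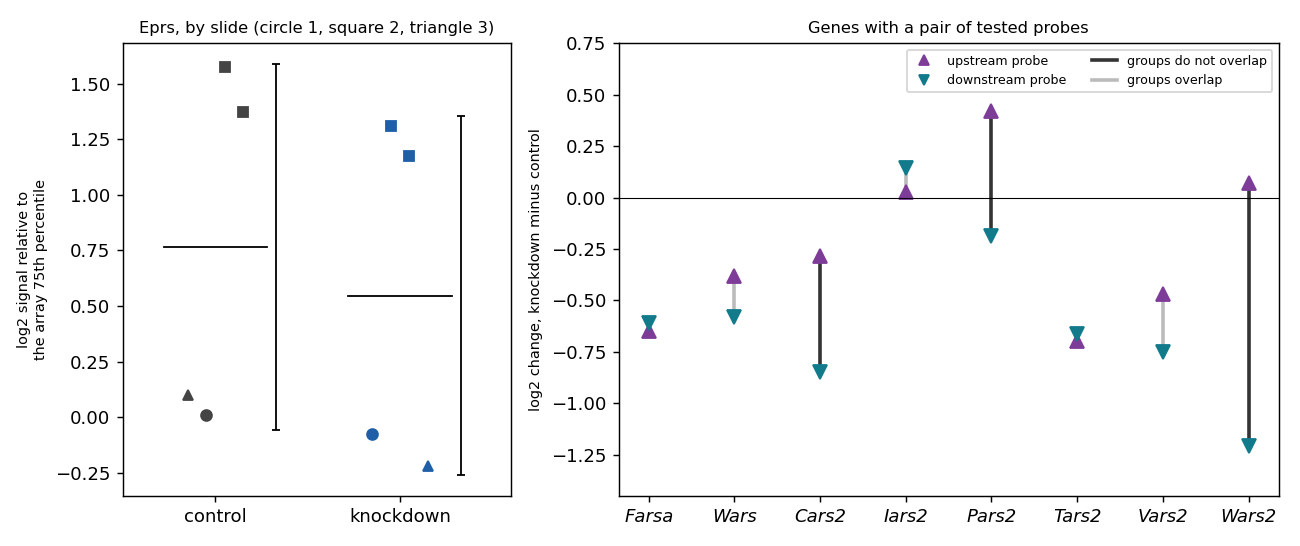
Left, log2 signal of Eprs on the 4 control and 4 knockdown arrays relative to the array's 75th percentile, with circles, squares and triangles for slides 1, 2 and 3, the line for the mean and the bar for the SD; the 4 arrays of slide 2 are the high ones in both groups. Right, log2 change of the upstream and downstream probe of the 8 synthetase genes with a pair of tested probes; dark lines mark Cars2, Pars2 and Wars2, whose within-array differences do not overlap between the groups.

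The amino acid response, through which ATF4 raises many cytosolic synthetase genes, was divided. Of 20 tested genes of that response 5 rose and 10 fell, and with median scaling 3 rose and 10 fell. The 25% that rose is below the 29.3% of all tested genes, and the 50% that fell is above their 28.7%. With median scaling 4143 of all 21750 tested genes rose and 6868 fell. Among the genes that rose were Ddit3, the stress transcription factor CHOP, by 5.42, and Trib3, a pseudokinase induced by CHOP and ATF4, by 2.35. Chac1, which degrades glutathione, rose by 1.62, Cebpb by 0.58 and Atf4 itself by 0.52, the latter 2 not with median scaling. The level of Ddit3 went from -0.79 ± 0.10 to 4.63 ± 0.07 (SD, n = 4 each). Those that fell include Shmt2 (-1.14) and Psat1 (-0.85), of serine and glycine metabolism, the amino acid transporters Slc7a1 (-0.94), Slc3a2 (-0.52) and Slc7a5 (-0.47), and the asparagine synthetase Asns (-0.17). Eif2ak4, the kinase GCN2 that senses uncharged tRNA, fell by 0.51.

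Of the 12 cytosolic synthetases often listed as ATF4 targets, Sars rose, Mars, Nars and Wars fell, and 8 did not pass, with a median of -0.19. The 25% that fell is near the 28.7% of all tested genes, and the 8.33% that rose is below their 29.3%. With the knockdown pairs averaged, Nars and Sars lost their calls, which leaves 2 that fell and 0 that rose. Of the other 8 cytosolic genes, Farsa, Hars and Vars fell and 5 did not pass, with a median of -0.23. The medians of the listed targets and of the rest differed by little, and that difference was not tested.

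ATF4 with a C/EBP partner binds elements that share the core TGATGNAA, or TTNCATCA on the other strand. RefSeq promoters of 300 bases (250 before to 50 after the start, build GRCm38.p6) were matched by symbol for 27 of the 36 members, 13 cytosolic and 14 mitochondrial. The core was found in 5 of the 13 cytosolic genes (38.5%) and in 0 of the 14 mitochondrial ones, where 3.97% of all 32851 promoters of this length hold it. The 30 bases around 1 match of each gene are printed, with the match in capitals. A further match in 1 of these genes, farther from the start site, is not reported here. They were chosen after the values were seen.
Aars, chr8:111033840-111033869, plus strand: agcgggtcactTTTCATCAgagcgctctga
Gars, chr6:55037960-55037989, plus strand: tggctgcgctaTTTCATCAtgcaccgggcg
Iars, chr13:49682126-49682155, plus strand: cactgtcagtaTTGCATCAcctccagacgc
Tars, chr15:11399655-11399684, minus strand: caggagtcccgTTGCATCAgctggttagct
Yars, chr4:129189895-129189924, plus strand: acgagctcagcTGATGCAAcccgacgggac

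Counted from the start site, with negative positions before it, the first base of the printed match lies at 10 in Aars, -30 in Gars, 8 in Iars, -15 in Tars and 4 in Yars. None of these 5 genes passed the test: their changes were -0.04 (Aars), 0.13 (Gars), -0.34 (Iars), -0.02 (Tars) and -0.30 (Yars). All 5 are among the 12 listed ATF4 targets. The 12 matched members that fell, 2 cytosolic and 10 mitochondrial, had no such core in their window. As only 3.97% of all promoters hold the core, its absence from 12 does not set them apart from other promoters. The other cytosolic members that fell had no promoter to search. Among the response genes the core was found in 5 of 19 with a promoter, of which Chac1 and Trib3 rose, Asns and Slc1a4 fell and Slc7a11 was too dim to be tested. A match in these letters is a description of the sequence and not a measured binding site.

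Mars lies next to Ddit3 on chromosome 10 and overlaps it in the RefSeq gene table, and the 2 genes moved apart on the arrays, Mars by -0.51 and Ddit3 by 5.42. Hars and Hars2 are neighbours that overlap on chromosome 18, and their changes were -0.54 and -0.23. Iars2 and Eprs are separated by 1 gene on chromosome 1.

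Other steps of tRNA use gave mixed counts. Xpot, which exports tRNA from the nucleus, fell by 0.88 (limma adjusted p 4.18e-05). Of 6 further synthetase-like and editing genes 3 rose and 0 fell, where 29.3% of all tested genes rose and 28.7% fell. Those that rose were Prorsd1 by 0.65, Tarsl2, a second cytosolic threonine enzyme, by 0.45 and Dtd2 by 0.26. Dtd2 removes wrongly attached amino acids from tRNA. With median scaling only 1 of the 6 rose. Of 3 genes of selenocysteine synthesis Sepsecs rose by 0.76 and the others did not pass.

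In mitochondria, Gatb, a subunit of the enzyme that makes glutamine tRNA by amidation, fell by 0.73, and Mtfmt, which formylates the initiator methionine tRNA, rose by 0.46, though with median scaling its change was 0.30 and did not pass (limma adjusted p 0.094). Of 4 mitochondrial elongation factor genes, Gfm2, which recycles ribosomes, fell by 0.33 and 3 did not pass. Of 77 tested mitochondrial ribosomal protein genes 35 fell (45.5%) and 14 rose (18.2%), with a median of -0.18. The share that fell is thus also above the 28.7% of all tested genes, and the share that rose is below their 29.3%. With median scaling 38 fell and 2 rose, where 6868 of all 21750 tested genes fell and 4143 rose. The mitochondrial synthetases had the lower median, -0.55, of these 2 lists of the same organelle's translation, a difference that was not tested.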

How the data were processed

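The deposited scanner files hold spot intensity values from 1-colour Agilent arrays of design 028005, 1 array per sample, each from 100 ng of RNA amplified from an oligo-dT primer and labelled with Cy3, per the labels. Per the file headers, Feature Extraction 10.7.3.1 corrected the intensity for background within each array, with no scaling between arrays. The log2 values of the authors' deposited table, whose making is not described in the labels or headers, matched a normexp correction (offset 50) with quantile normalization (correlation 0.99999 on each array) and were used as an alternative. Their median was 7.10 on each array.

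Outlier spots were removed, but for the 2 to 6 probes per array whose spots were all outliers, which kept them. Spots of a probe were averaged and put on the log2 scale relative to the 75th percentile of the 59305 non-control spots of that array. Of 55681 probes, 29091 entered the test because every array of 1 or both groups had them well above background, and the brightest tested probe stood for a gene. No spot was saturated. RefSeq gave 26300 probes a current name by accession, 355 by synonym and 2044 by symbol, while 26982 carry the files' own name. Knockdown was compared with control (4 arrays each) with limma 3.58.1 in R 4.3.3, Benjamini-Hochberg at 0.05, and the fit was tested on simulated data. Exact permutation tests used SciPy 1.17.1. The members, the gene lists and the rule for named genes (all members, and list genes with examples) were chosen with earlier results of these data known. That rule would have printed promoters of cytosolic members that passed the test and held the core. Promoters were available for only 2 cytosolic members that fell and 1 that rose, and none of these held it. The other cytosolic members that passed had no promoter to search. Alternatives covered scaling, background, filter, probe choice, slide, shared numbers and each array left out. Samples with the same replicate number did not deviate together in all 4 cases, so the numbers were not taken to pair them. Beside the sequences printed, 1 further probe and 1 further promoter match are not reported here.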

Additional observations from a re-analysis of the deposited data

Results flagged for a closer look

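Of 74 groups of 4 arrays examined among the members and their probes, 1 held an array far from the rest. Chance gives about 1 group in 20, so 1 of 74 is not more than chance would give. Control array 4 read 1.20 for Sars2, the mitochondrial serine enzyme, while the other 3 control arrays lay between 1.50 and 1.51. It still lay above the highest knockdown array, at 0.90.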

How the results depend on the processing

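Of the 18 members that passed, 15 passed with the same direction under all 18 alternatives. Nars lost its call under 14 and Sars under 9, and Nars2 kept its call under the 17 that gave it a value. With median scaling no cytosolic gene rose (0), and the medians were -0.38 (cytosolic) and -0.72 (mitochondrial). With normexp and quantile normalization 2 cytosolic genes rose and the mitochondrial median was -0.45, and the authors' table gave 2 and -0.45. Without a filter 0 cytosolic genes rose, as with knockdown pairs averaged, and with only probes well above background on all 8 arrays 0 mitochondrial genes rose, since Nars2 left the test. With the mean of a gene's probes 0 amino acids passed in either direction (5 and 4 at the smallest p, adjusted p 0.0508). With the replicate block, which is not backed by the pairing check, 0 cytosolic genes rose and 5 fell, 1 mitochondrial gene rose and 10 fell, and 11407 genes passed in all.

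Leaving out 1 array gave 0 to 1 cytosolic genes that rose, 5 to 7 that fell, 1 to 2 mitochondrial genes that rose and 10 to 12 that fell, with medians of -0.24 to -0.15 and -0.59 to -0.51. The test of differences between enzymes was not run with an array left out or pairs averaged, where the exact test cannot pass. The members that changed sign did not pass in either setting. With normexp and with the authors' table these were Aars (0.0528 and 0.0531), Cars (0.0677 and 0.0669), Farsb (0.0961 and 0.0976), Kars (0.0137 and 0.0128), Tars (0.0737 and 0.0738) and Mars2 (-0.0260 and -0.0269). With median scaling they were Gars (-0.0355), Qars (-0.0454), Iars2 (-0.0219) and Mars2 (-0.0791), and with the mean of probes Pars2 (0.117). With 1 array left out the range was -0.0802 to 0.00275 for Aars, -0.0515 to 0.0406 for Cars, -0.472 to 0.0522 for Eprs, -0.125 to 0.0290 for Farsb and -0.0785 to 0.0842 for Tars. The cause of these shifts was not tested.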
